A study of Schizosaccharomyces pombe with 24 samples.

Results

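The extracellular 5'-nucleotidase family of fission yeast, Schizosaccharomyces pombe, comprises the 3 genes SPBPB2B2.06c, SPAC1039.02 and SPAC17G6.03. They were taken by systematic identifier and are also the 3 genes annotated as extracellular 5'-nucleotidases among the 6987 genes of the tables. Poly(A)+ RNA had been sequenced in 24 libraries, 3 biological replicates in each of 8 groups. The first group was pho7Δ (strain AGP83, h- pho7delta::natMX) in log phase in YES, which is a rich yeast extract medium, and is called 0 h. Another 6 groups were the same strain in ePMGT(-PO4), a defined glutamate medium without phosphate, sampled at 4 h, at 8 h, at 12 h and then every 12 h until 48 h. The reference was the wild type (WT, strain AGP72, h-) in log phase in YES, at 0 h. The strain list of the study gives its strains auxotrophic alleles of leu1, ura4, his3 and ade6, so WT here stands for pho7+. No starved WT group was analysed here, hence the comparisons show what the 3 genes did in cells lacking Pho7 and do not measure how much of it Pho7 contributes. Medium and phosphate both changed between 0 h and 4 h, and cannot be told apart in these groups. Growth phase was not analysed here, and the study reports that cells left without phosphate divide a few more times and then turn quiescent. Time without phosphate and growth phase thus cannot be told apart in these groups.

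Extracellular 5'-nucleotidases remove the phosphate from nucleoside 5'-monophosphates such as AMP outside the cell, which gives a nucleoside and free phosphate. They belong, with secreted acid phosphatase and phosphate permeases, to the means by which fungi draw phosphate from organic sources. Phosphate acquisition genes of fission yeast are activated by Pho7, a zinc-containing transcription factor. The comparisons ask which transcripts change when Pho7 is missing in rich medium, and which still respond to phosphate starvation without it.

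The values below are the authors' mean of normalized reads per group. One average per group carries no replicate spread, so no SD or test is given, and no difference below was set against replicate error. A gene was counted as higher or lower when the averages differed 2-fold or more and the higher one was at least 100 normalized reads. Folds are log2((average + 1)/(average + 1)), which understates the change of genes with low averages. The deleted gene, pho7, averaged 334 to 833 normalized reads in the 7 pho7Δ groups and 3147 in WT, or 10.6% to 26.5% of the WT level. The averages of a group summed to between 16621902 and 18645927 over all genes, on the scale of the authors' normalization, and how deeply each library was sequenced was not analysed here.

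SPAC1039.02 was the most abundant of the 3 transcripts in every group. Its average in pho7Δ was 12501 at 0 h, 108603 at 4 h, 191924 at 8 h, 149751 at 12 h, 67639 at 24 h, 56012 at 36 h and lastly 46685 at 48 h, and it was 738 in WT at 0 h. The transcript was thus already high in pho7Δ cells that had phosphate, and was highest at 8 h. At 8 h it alone took 1.06% of all normalized reads. Divided by transcript length in the RefSeq assembly ASM294v3, its level was 97177 per kb at 8 h and ranked 6 among 5106 protein-coding genes. The genes above it were the glycolytic and fermentative genes fba1, gpm1, tdh1, pgk1 and pdc101. Its rank per kb was 360 in pho7Δ at 0 h, 4 after 12 h and 76 after 48 h, and 4014 in WT.

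SPBPB2B2.06c was nearly undetected before starvation. Its average in pho7Δ was 2.82 at 0 h, 275 at 4 h, 3855 at 8 h, 5048 at 12 h, 3052 at 24 h, 1674 at 36 h and lastly 739 at 48 h, and it was 2.13 in WT at 0 h. Both strains in rich medium were therefore close to 0 for this gene, and the transcript peaked a sampling time later than SPAC1039.02. Per kb its level ranked 980 of 5106 protein-coding genes at 12 h and 5037 in pho7Δ at 0 h, against 5048 in WT.

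SPAC17G6.03 was detected in all groups and held a nearly level plateau under starvation. Its average in pho7Δ was 835 at 0 h, 3221 at 4 h, 3561 at 8 h, 3354 at 12 h, 2936 at 24 h, 3057 at 36 h and lastly 3240 at 48 h, and it was 293 in WT at 0 h. The 6 starved groups lay between 2936 and 3561, all above pho7Δ at 0 h, which in turn lay above WT. The libraries were stranded, but the strand setting of the counting is not stated. Whether reads of cpp1, a gene on the opposite strand, affected these values was not tested. Per kb it ranked between 1291 and 1544 among the protein-coding genes in the starved groups.

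**Figure D1:**
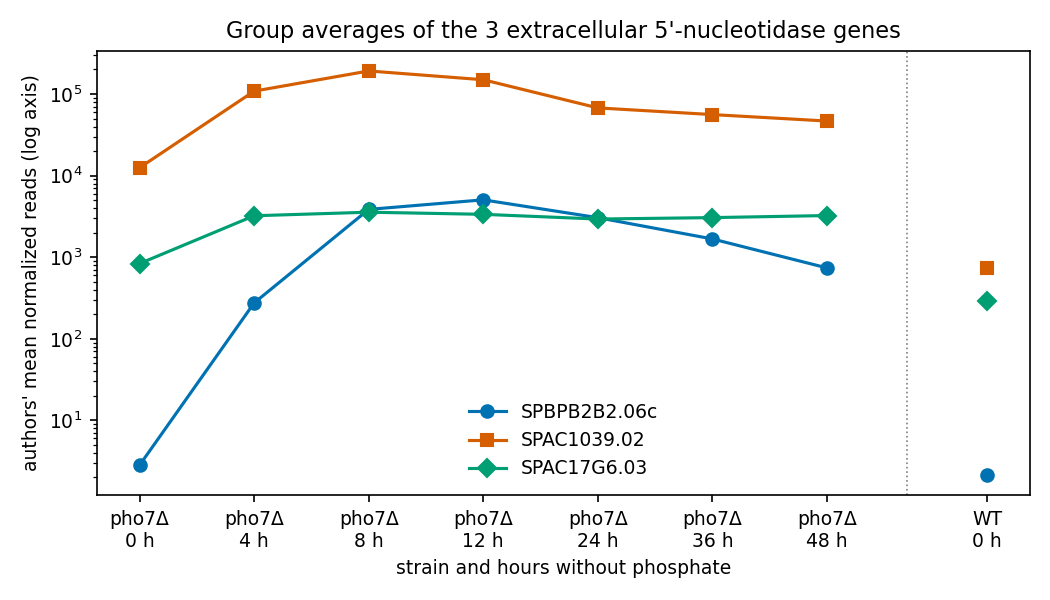
Authors' mean of normalized reads (log axis) of the 3 nucleotidase genes in the 7 pho7Δ groups by hours without phosphate, with WT at 0 h at the right; each point is 1 group average and there are no error bars. SPAC1039.02 lies highest in each group, and SPBPB2B2.06c spans 2.13 in WT to 5048 in pho7Δ at 12 h.

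The order of the 3 genes depended on the group. Per kb, the levels at 12 h in pho7Δ were 75823 for SPAC1039.02, 2351 for SPBPB2B2.06c and 1652 for SPAC17G6.03. At 0 h in pho7Δ they were 6330 for SPAC1039.02, 411 for SPAC17G6.03 and 1.32 for SPBPB2B2.06c, and in WT they were 373, 144 and 0.994 per kb in the same gene order. SPBPB2B2.06c thus stood above SPAC17G6.03 per kb at 8 and 12 h only, and their levels of 1421 and 1446 per kb at 24 h were nearly equal. Without a spread, it cannot be said which of these neighbours in the order differ. SPAC1039.02 supplied 91.9% to 96.9% of the family's normalized reads in the 7 pho7Δ groups and 71.4% in WT. SPAC17G6.03 made up 6.26% in pho7Δ at 0 h, 1.79% after 8 h and 6.4% after 48 h, against 28.4% in WT. SPBPB2B2.06c had its largest share, 4.14%, at 24 h. The 3 genes together took 1.1% of normalized reads at 8 h, 0.0728% in pho7Δ at 0 h and 0.00621% in WT. The family sum was 193-fold the WT sum at 8 h and 49.1-fold at 48 h.

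In rich medium 2 of the 3 genes were higher in pho7Δ than in WT. SPAC1039.02 averaged 12501 in pho7Δ and 738 in WT, a log2 fold of 4.08 or 16.9-fold, and was 14th from the top among 5599 genes that reached 100 in either group. SPAC17G6.03 averaged 835 in pho7Δ and 293 in WT, a log2 fold of 1.51. SPBPB2B2.06c averaged 2.82 in pho7Δ and 2.13 in WT, was under 100 in both and was not called. For comparison, 8.5% of the 5599 genes were 2-fold or more higher in pho7Δ at 0 h, so 2 of 3 members is above the general share, though over only 3 genes. The strains differed in the same direction at SPAC1039.02 and SPAC17G6.03 without any phosphate starvation.

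Against pho7Δ at 0 h, all 3 genes were 2-fold or more higher at every starved time. The percentage of measured genes that were higher by this rule was 6.0% at 4 h, 12.6% at 8 h, 14.7% at 12 h, 17.7% at 24 h and 18.0% at both 36 h and 48 h. SPBPB2B2.06c had log2 folds of 6.18 at 4 h, 9.98 at 8 h, 10.37 at 12 h, 9.64 at 24 h, 8.77 at 36 h and finally 7.60 at 48 h. It ranked 1st among all measured genes from 4 to 36 h and 4th at 48 h. These folds rest on an average of 2.82 at 0 h and depend on the number added to both averages. When 10 was added, the log2 fold was 4.48 in place of 6.18 at 4 h and 8.62 in place of 10.37 at 12 h. Ranks were computed only with 1 added, so the place at 4 h in particular may depend on that choice. SPAC1039.02 had log2 folds of 3.12 at 4 h, 3.94 at 8 h, 3.58 at 12 h, 2.44 at 24 h, 2.16 at 36 h and finally 1.90 at 48 h, from the high level of 12501 at 0 h. Its rank was 26 at 4 h and 419 at 48 h. SPAC17G6.03 stayed between 1.81 and 2.09 at all 6 times.

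Against WT at 0 h, the 3 genes were again 2-fold or more higher at all 6 starved times. The percentage of measured genes higher by this rule was 15.2% at 4 h, 18.0% at 8 h, 19.6% at 12 h, 21.3% at 24 h, 21.1% at 36 h and lastly 20.9% at 48 h. These comparisons differ in strain, medium and phosphate at once, and all of them share the same WT libraries. SPBPB2B2.06c reached a log2 fold of 10.65 at 12 h, with averages of 5048 in pho7Δ and 2.13 in WT, and ranked 1st among the 5760 measured genes. SPAC1039.02 reached 8.02 at 8 h, with averages of 191924 in pho7Δ and 738 in WT, and ranked 4th among 5727. SPAC17G6.03 reached 3.60 at 8 h, with averages of 3561 in pho7Δ and 293 in WT, and ranked 144th. Over these and the comparisons with pho7Δ at 0 h, 38 of 39 member folds passed the 2-fold rule, the exception being SPBPB2B2.06c in rich medium.

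**Figure D2:**
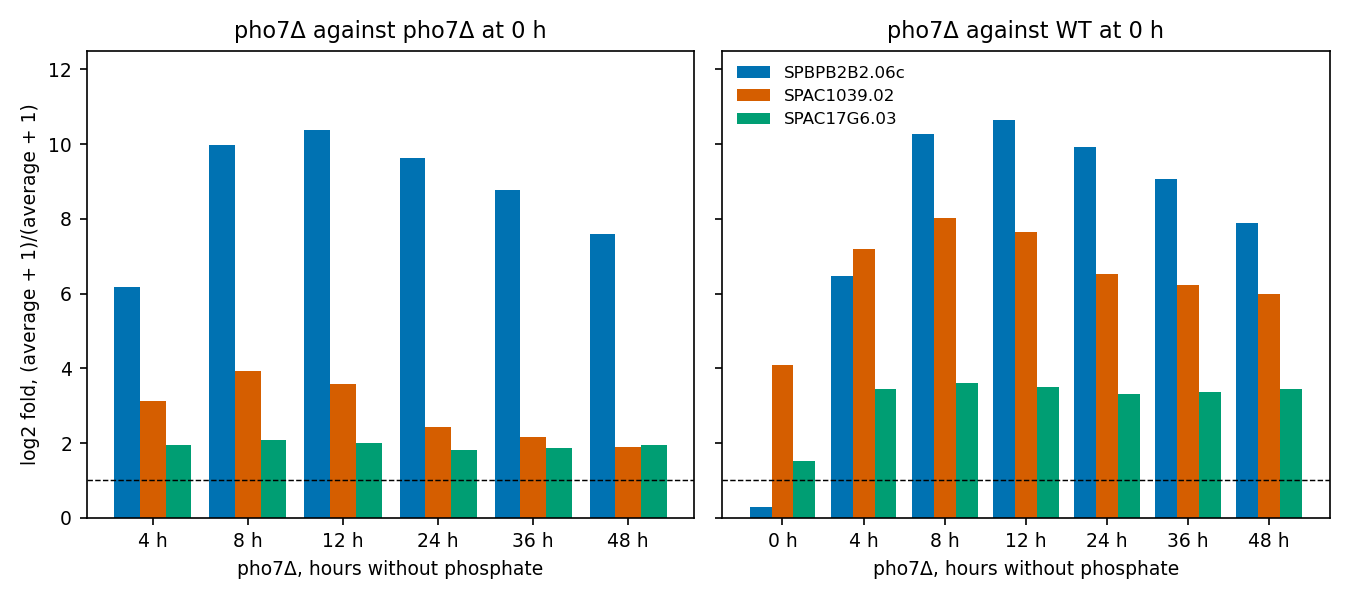
Log2 folds of the 3 nucleotidase genes in pho7Δ against pho7Δ at 0 h (left) and against WT at 0 h (right), by hours without phosphate, from 1 average per group and without error bars; the dashed line is 2-fold. SPBPB2B2.06c reaches 10.37 and 10.65 at 12 h, while SPAC17G6.03 stays between 1.81 and 2.09 in the left panel under starvation.

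The 3 courses differed in when they climbed and whether they came down again. At 4 h, SPAC17G6.03 was at 90.4% of its highest pho7Δ average, SPAC1039.02 at 56.6% and SPBPB2B2.06c at 5.46%. SPBPB2B2.06c was 13.9-fold higher at 8 h than at 4 h, the 6th largest step among 5549 measured genes, where SPAC1039.02 was 1.77-fold and SPAC17G6.03 1.11-fold higher. SPAC1039.02 and SPBPB2B2.06c then came down on different schedules. SPAC1039.02 had its largest drop between 12 and 24 h, with a log2 fold of -1.15 that ranked 27th from the bottom of 5645 genes. SPBPB2B2.06c had steps of -0.73 from 12 to 24 h, -0.87 from 24 to 36 h and -1.18 from 36 to 48 h. That last step was the lowest of all 5622 measured genes in that interval.

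Between 8 and 48 h, 2 of the 3 genes were 2-fold or more lower, against 4.18% of the 5669 measured genes. SPBPB2B2.06c averaged 739 at 48 h, against 3855 at 8 h, a log2 fold of -2.38. SPAC1039.02 averaged 46685 at 48 h, against 191924 at 8 h, a log2 fold of -2.04. SPAC17G6.03 averaged 3240 at 48 h, against 3561 at 8 h, a log2 fold of -0.14. Among the 704 genes that were 2-fold or more higher at 8 h than at 0 h in pho7Δ, the median gene stood at 91.0% of its highest average at 48 h. SPBPB2B2.06c stood at 14.6% and SPAC1039.02 at 24.3%, and only 20 and 35 of the 704 genes stood lower. SPAC17G6.03 stood at 91.0%, in the middle of these genes. At 48 h SPAC1039.02 was still well above pho7Δ at 0 h, at 46685 against 12501 normalized reads.

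**Figure D3:**
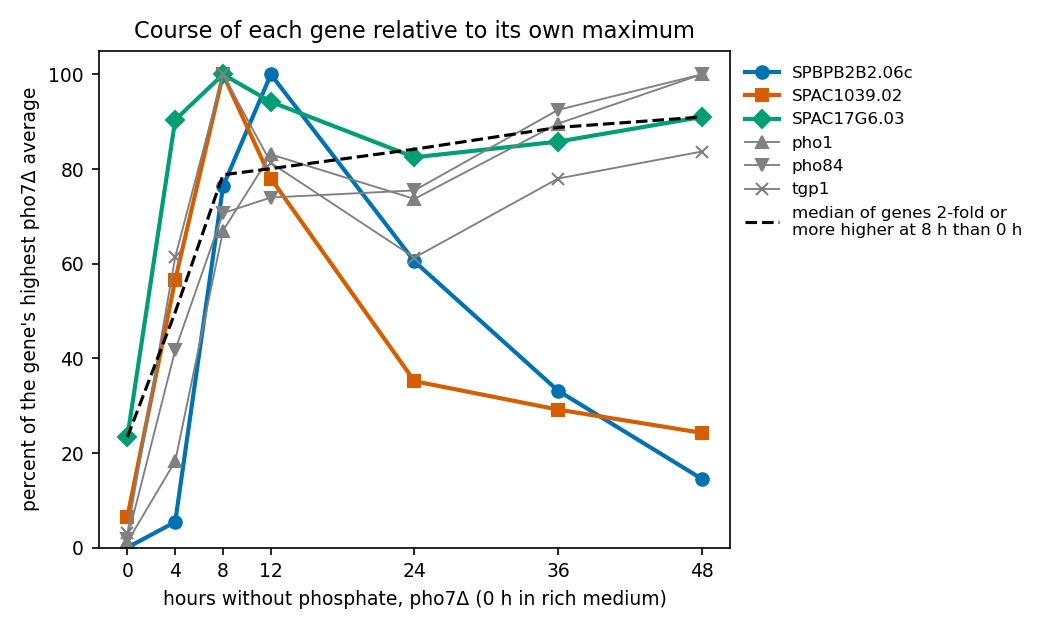
Group averages in pho7Δ as a percentage of each gene's highest pho7Δ average, by hours without phosphate, for the 3 nucleotidase genes, for pho1, pho84 and tgp1 (grey) and for the median of the 704 genes higher at 8 h than at 0 h (dashed). SPBPB2B2.06c and SPAC1039.02 come down to 14.6% and 24.3% at 48 h, while pho1 and pho84 are at 100% and SPAC17G6.03 is at 91.0%.

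Unlike SPBPB2B2.06c and SPAC1039.02, the phosphate acquisition genes pho1, pho84, pho841 and pho842 had their highest pho7Δ averages at 48 h. Other listed phosphate acquisition genes peaked earlier: vtc2, nrf1, pho8 and tgp1 at 8 h, vtc4 at 12 h, pho4 at 4 h and pho843 at 0 h. The acid phosphatase gene pho1 averaged 487 in pho7Δ at 0 h, 7154 after 4 h, 26149 after 8 h and 39014 after 48 h, and 1701 in WT. The phosphate transporter gene pho84 averaged 1313 in pho7Δ at 0 h, 29152 after 4 h, 49277 after 8 h and 69715 after 48 h, and 3790 in WT. Both were lower in pho7Δ than in WT in rich medium, with log2 folds of -1.80 and -1.53, the opposite direction to SPAC1039.02 and SPAC17G6.03. The glycerophosphodiester transporter gene tgp1 was likewise lower in pho7Δ than in WT at 0 h, with 366 in pho7Δ at 0 h, 11861 after 8 h, 7274 after 24 h and 9931 after 48 h, and 992 in WT. It peaked at 8 h, as SPAC1039.02 did, and stood at 61.3% of that peak at 24 h and 83.7% at 48 h. Per kb, SPAC1039.02 stood at 97177 at 8 h and 23638 at 48 h, and pho84 at 23465 at 8 h and 33197 at 48 h, so their order was reversed between these times.

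Of the 11 phosphate acquisition genes listed, at 0 h 2 were 2-fold or more higher and 5 lower in pho7Δ than in WT, with a median log2 fold of 0.14 beside 0.06 over all measured genes. Of all measured genes, 8.5% were higher and 12.1% lower in that comparison. The 2 higher genes were pho841, a phosphate transporter gene, and nrf1, a gene of the vacuolar polyphosphate-making VTC complex, and neither passed when the groups were scaled to equal sums. The 5 lower genes were pho1, pho84, tgp1, pho842 and pho843. At 8 h, 8 were higher and 2 lower than in WT, with a median of 2.54 beside -0.02 over all measured genes. Of all measured genes 18.0% were higher and 18.0% lower at 8 h, so the 2 lower genes of 11 are near the general share. The 2 lower genes were the phosphate transporter genes pho842, with 661 in pho7Δ at 8 h and 3002 in WT, and pho843, with 883 in pho7Δ at 8 h and 5680 in WT. The thiamine-repressible acid phosphatase gene pho4 changed by less than 2-fold, with 2478 in pho7Δ at 8 h and 2153 in WT. Between 8 and 48 h, 1 of the 11 was 2-fold or more lower, namely pho4, and 1 was higher, namely pho842, where 4.18% of all measured genes were lower and 7.59% higher.

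Among 7 other genes of nucleotide dephosphorylation, 2 were 2-fold or more higher in pho7Δ than in WT at 0 h and 5 at 8 h, with median log2 folds of 0.51 and 1.08. Over all measured genes the shares higher were 8.5% and 18.0% and the medians 0.06 and -0.02. With equal sums the count at 8 h was 3. None of the 7 was 2-fold or more lower than in WT at any time. Relative to unstarved pho7Δ, 2 of the 7 were higher and 1 lower after 8 h, with a median log2 fold of 0.64. After 48 h, 0 remained higher and 1 was lower, with a median of 0.44. The lower gene was tol1 in both cases. It averaged 3735 in unstarved pho7Δ, 1836 after 8 h and 1568 after 48 h, and 2922 in WT. SPAC24B11.05, annotated as a pyrimidine 5'-nucleotidase, had the largest fold of this list in rich medium, with 2838 in pho7Δ at 0 h and 537 in WT. It averaged 11935 after 4 h, 10790 after 8 h and 4992 after 48 h, and was the only gene of this list 2-fold or more lower at 48 h than at 8 h. The cyclic nucleotide phosphodiesterase gene SPACUNK4.15 averaged 1033 in pho7Δ at 0 h and 1960 at 8 h, and 460 in WT. The IMP 5'-nucleotidase gene isn1 averaged 4172 in pho7Δ at 8 h and 1972 in WT. The nucleotide pyrophosphatase gene npp1 averaged 3954 in pho7Δ at 8 h and 993 in WT. The nucleoside diphosphatase gene ynd1 differed from WT by less than 2-fold at each time.

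The nucleosides that 5'-nucleotidases release are taken up and split or re-phosphorylated by salvage enzymes. The list holds 14 such genes by product text, of which tad2 and tad3 act on tRNA and not on free adenosine. At 8 h, 6 of the 14 were 2-fold or more higher and 2 lower in pho7Δ than in WT, with a median log2 fold of 0.64, where 18.0% of all measured genes were higher and 18.0% lower. Without tad2 and tad3, 5 of 12 were higher and 1 lower. By 48 h, 3 were higher and 2 lower, with a median of 0.07 beside -0.04 over all measured genes. Both counts are near or below the shares over all measured genes at 48 h, 20.9% higher and 19.0% lower. The strains already differed at 0 h, with 4 higher and 0 lower and the same median of 0.64. Against pho7Δ at 0 h, 3 were higher and 1 lower at 8 h, with a median of 0.07. Of 5609 measured genes, 704 were then higher and 478 lower. By 48 h, 0 were higher and 2 lower than in pho7Δ at 0 h, with a median of -0.73, where 1024 of 5701 were higher and 724 lower. The uridine ribohydrolase gene urh1 averaged 3399 in pho7Δ at 0 h, 15336 after 8 h and 6650 after 48 h, and 1075 in WT. The nucleoside hydrolase gene SPBC800.11 averaged 668 in pho7Δ at 0 h, 4754 after 8 h and 125 after 48 h, and 303 in WT, so its log2 fold between 8 and 48 h was -5.24. The purine nucleoside phosphorylase gene SPAC1805.16c averaged 2806 in pho7Δ at 0 h, 6102 after 4 h and 1637 after 48 h, and 1081 in WT. The adenine phosphoribosyltransferase gene apt1 ran the other way within pho7Δ, with 3821 in pho7Δ at 0 h, 843 after 8 h and 2173 after 48 h, and 2161 in WT. The adenosine kinase gene ado1 averaged 6898 in pho7Δ at 0 h, 5160 after 8 h and 3625 after 48 h, and 5629 in WT.

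The 7 listed signalling and regulatory genes of the phosphate response had smaller folds against WT at 8 h than any of the nucleotidase genes. At 8 h, 3 were 2-fold or more higher and 2 lower in pho7Δ than in WT, pho7 itself being one of the lower ones, and the median log2 fold was 0.78 beside -0.02 over all measured genes. Without pho7, 3 of 6 were higher and 1 lower, where 18.0% of all measured genes were higher and 18.0% lower. The inositol pyrophosphate synthase gene asp1 averaged 4849 in pho7Δ at 8 h and 1826 in WT. The inositol pyrophosphatase genes aps1 and siw14 averaged 2499 and 3727 in pho7Δ at 8 h, and 1052 and 880 in WT. The kinase gene csk1 averaged 493 in pho7Δ at 8 h and 1121 in WT, and was the other lower one. None of the 7 genes was 2-fold or more lower at 48 h than at 8 h.

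The members lie at separate places in the genome. In ASM294v3, SPBPB2B2.06c is on chromosome II with 18 protein-coding genes between it and the chromosome end, SPAC1039.02 on chromosome I with 43, and SPAC17G6.03 on chromosome I with 814. Coordinates are not given, since the tables were made on ASM294v2. The gene beside SPBPB2B2.06c on one side, SPBPB2B2.05, encodes a class I glutamine amidotransferase family protein. It averaged 27.9 in pho7Δ at 0 h, 243 after 4 h, 1215 after 8 h, 1840 after 12 h and 816 after 48 h, and 12.3 in WT. It thus also peaked at 12 h, and lost a smaller part of its peak by 48 h. The gene on the other side, SPBPB2B2.07c of the DUF999 family, was under 100 in each group and so was not called. It averaged 1.35 in pho7Δ at 0 h, 27.8 after 12 h, 30.5 after 24 h and 8.06 after 48 h, and 0.774 in WT. These low averages thus also rose and came down.

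The gene beside SPAC1039.02 on one side, SPAC1039.01, encodes a predicted amino acid permease. It averaged 9480 in pho7Δ at 0 h, 25741 after 4 h, 29679 after 8 h, 32335 after 12 h and 15425 after 48 h, and 655 in WT. Its log2 fold in rich medium was 3.85, close to the 4.08 of SPAC1039.02. The esterase/lipase gene SPAC1039.03 on the other side averaged 1365 in pho7Δ at 0 h and 2589 at 48 h, against 3654 in WT, a log2 fold of -1.42 at 0 h. In ASM294v3 a noncoding gene on the opposite strand, SPNCRNA.4457, covers 95.1% of SPAC1039.02 and has no row in the tables.

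SPAC17G6.03 lies wholly within cpp1, which is read from the opposite strand in that assembly and encodes the beta subunit of protein farnesyltransferase. The libraries were stranded, but whether reads were counted by strand is not given in the labels or methods used here. If reads were counted without strand, those of both genes cannot be told apart. Between the strains at 0 h, cpp1 went the other way to SPAC17G6.03, with 1761 in pho7Δ and 3320 in WT. Within pho7Δ the averages of cpp1 changed little under starvation, with 1624 after 8 h and 1480 after 48 h. The next genes are tco1, listed at 0 in all groups, and bro1, which averaged 860 in pho7Δ at 0 h, 1061 after 8 h and 684 after 48 h, and 829 in WT.

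**Figure D4:**
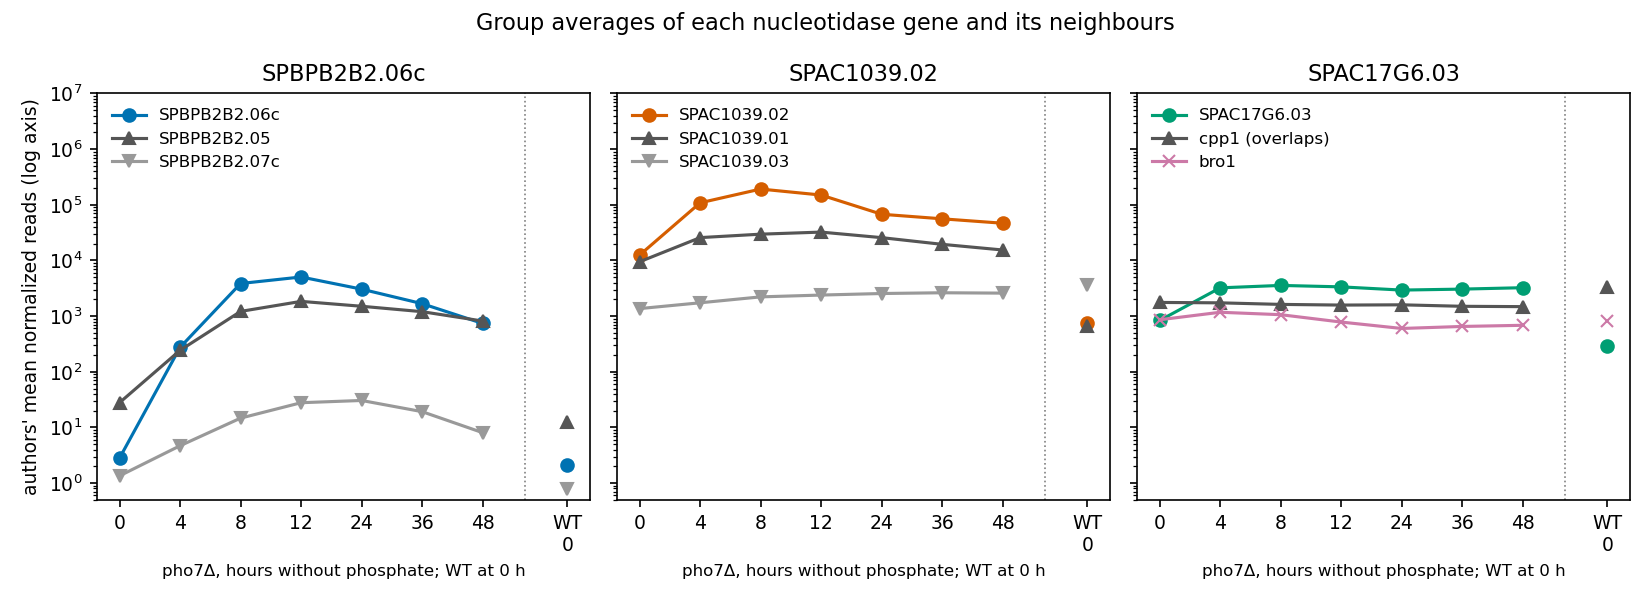
Authors' mean of normalized reads (log axis) of each nucleotidase gene and of its neighbours in ASM294v3, by hours without phosphate in pho7Δ and, at the right of each panel, in WT at 0 h; tco1, listed at 0, is not drawn. SPBPB2B2.05 and SPAC1039.01 are higher in every starved group than in WT, while cpp1 is lower in pho7Δ, at 1480 to 1761, than in WT, at 3320.

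Paralogous genes can share reads. How alike the sequences of the 3 genes are was not analysed here, and whether they share reads was not tested. The averages of SPBPB2B2.06c and SPAC1039.02 did not keep a fixed ratio, since SPBPB2B2.06c was at 0.0226% of SPAC1039.02 in pho7Δ at 0 h and at 4.51% at 24 h, against 0.289% in WT. With 12501 normalized reads at SPAC1039.02 in pho7Δ at 0 h, 2.82 were counted at SPBPB2B2.06c.

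Over the 8 group averages, SPAC1039.02 and SPAC17G6.03 were more alike to each other than either was to SPBPB2B2.06c. On log2(average + 1), Pearson's r was 0.97 between SPAC1039.02 and SPAC17G6.03, 0.91 between SPBPB2B2.06c and SPAC17G6.03 and 0.86 between SPBPB2B2.06c and SPAC1039.02. By r, SPAC17G6.03 was 125th of 4942 protein-coding genes for SPAC1039.02, and SPAC1039.02 was 155th for SPAC17G6.03. In the pairs with SPBPB2B2.06c the places lay between 333 and 597, so many other genes were closer. These are descriptions over 8 points that share the normalization and, for 7 of them, the strain. Of 4942 protein-coding genes, 2.79% had r above 0.95 with SPBPB2B2.06c, 4.41% with SPAC1039.02 and 4.88% with SPAC17G6.03. The 5 genes most like SPBPB2B2.06c were the basic amino acid transporter gene SPAC2E12.03c (r = 0.994), mug20, the TFIID subunit gene taf7, the neighbour SPBPB2B2.05 and the Gtr/Rag G protein gene gtr2. The size of change was far smaller in most of them, taf7 averaging 2281 in pho7Δ at 12 h and 1703 in WT. The 5 most like SPAC1039.02 were the kinase gene shk2 (r = 0.997), the vacuolar protease gene isp6, the ADP-ribose diphosphatase gene ysa1, the aspartate aminotransferase gene maa1 and the arginine synthesis gene arg4. Of these, isp6 averaged 20477 in pho7Δ at 8 h and 2403 in WT. The 5 most like SPAC17G6.03 were the L-pipecolate oxidase gene fap1 (r = 0.997), the glycerol dehydrogenase gene gld1, the condensin gene cnd3, the splicing factor gene cxr1 and the calcium permease gene sst1. Of these, gld1 averaged 2589 in pho7Δ at 8 h and 197 in WT. Most of these names changed when WT was left out or Spearman's measure was used.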

How the data were processed

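Groups were taken from the labels. Per the labels and the study's methods, RNA was extracted with hot phenol, stranded poly(A)+ libraries were prepared, and reads were aligned to ASM294v2 with HISAT2 2.1.0. Genes were counted with HTSeq 0.10.0, with no strand setting stated, and DESeq2 was used for normalization and testing. Each of the 7 tables sets 1 pho7Δ group beside WT. The deposited group averages are signal values, namely normalized counts averaged by the authors within a group and not divided by length. The tables also hold the authors' own comparison columns (log2 fold change, SE, Wald statistic, p-value and adjusted p-value), none of which was used, and a mean by the authors across every library they fitted. No column of values per library was left unused (0 columns), and without such values no SD, interval or test could be had. Sequencing depth of the libraries was not analysed here.

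Folds were computed in Python 3.11.15 with a pseudocount of 1, and calls needed 2-fold and an average of 100, the fold and read limits in the study's methods. Gene order, lengths and missing symbols came from RefSeq ASM294v3, where 6637 of 6987 genes had a length. The members and the 4 lists of genes were chosen with earlier results of these data known. Named genes were the members, pho7, listed genes with an average of at least 100, neighbours and overlapping genes, and the 5 protein-coding genes with the highest correlation to each member. Genes above SPAC1039.02 in level per kb were named in addition, after their values were seen. The calculation was tested on simulated data. Alternatives were pseudocounts of 0 and 10, minimum averages of 0 and 20, a 4-fold limit, equal group sums, a median ratio of 1, levels per kb, and 3 other measures of likeness.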

Additional observations from a re-analysis of the deposited data

Results flagged for a closer look

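The authors' mean of SPBPB2B2.06c over all libraries of their fit was 18190 normalized reads, above each of the 8 group averages, the highest of which was 5048 in pho7Δ at 12 h, against 2.13 in WT. A mean cannot exceed all the averages it is made from, so the fit took in further libraries that were not analysed here, with the gene above 18190 in at least 1 of them. The same held for 282 of 6987 genes. For SPAC1039.02 and SPAC17G6.03 the overall means were 72149 and 2627, within the range of the group averages.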

How the results depend on the processing

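No paired analysis was possible because the tables hold 1 average per group, and for the same reason leaving out replicates was not run. The 38 of 39 member folds that passed 2-fold did so with pseudocounts of 0, 1 and 10 and with equal sums. With a pseudocount of 10, the log2 folds of SPBPB2B2.06c against WT were 4.56, 8.32, 8.70, 7.98, 7.12 and 5.95 from 4 to 48 h, and those against pho7Δ at 0 h were 4.48, 8.24, 8.62, 7.90, 7.04 and 5.87. With a 4-fold limit, the counts of higher genes against WT from 0 to 48 h were 139, 315, 443, 473, 508, 528 and 529. Those against pho7Δ at 0 h from 4 to 48 h were 75, 198, 250, 359, 360 and 370, and 54 genes were lower at 48 h than at 8 h. Minimum averages of 0 and 20 and equal sums moved each of the 14 counts at 2-fold by at most 1.5 times, and were not run at 4-fold.

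Of the 5 genes most like SPBPB2B2.06c, 1 was still among the 5 over the 7 pho7Δ groups, 2 with a pseudocount of 10 and 0 by Spearman's measure. For SPAC1039.02 the number was 0 over the 7 groups and 0 by Spearman's measure, and for SPAC17G6.03 it was 2 and 0, while a pseudocount of 10 kept all 5 genes for both. Equal sums, an alternative chosen after seeing the data for the lists, changed 9 of 104 list counts by over 1.5 times. Phosphate acquisition then had 0 higher at 0 h against WT and 1 lower at 24 h against pho7Δ at 0 h. The nucleotide dephosphorylation list had 3 higher at 8 h against WT. Salvage, against pho7Δ at 0 h, had 1 lower at 12 h, 2 higher at 24 h and 1 higher at 48 h. The regulators had 2 lower at 0 h against WT, and 0 lower at 24 h and 1 lower at 36 h against pho7Δ at 0 h.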

Other observations

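Of the 704 genes that were 2-fold or more higher at 8 h than at 0 h in pho7Δ, 33 had their highest average at 4 h, 179 at 8 h, 77 at 12 h, 120 at 24 h, 75 at 36 h and 220 at 48 h. SPAC1039.02 and SPAC17G6.03 belong to the 179 genes of 8 h and SPBPB2B2.06c to the 77 genes of 12 h.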
